A study of Mus musculus with 6 samples.

Results

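The genes described here are 37 mouse genes of fatty acid uptake and mitochondrial fatty acid breakdown. They were chosen by name from a list of the pathway with earlier results of these data known, so shares given for them are no test. They are 37 of the 54393 genes in the deposited table, and all 37 passed the filter on low values (10 normalized counts or more, averaged over 6 samples) that left 16031 genes for testing. RNA was sequenced from tibialis anterior, a shin muscle made mostly of fast fibres, of adult mice. There were 3 wild-type samples (WT, titled C57 and numbered 1, 3 and 4) and 3 samples with the genotype Dock3 KO (numbered 1, 2 and 3). Dock3 is a guanine nucleotide exchange factor for Rac, best known from neurons, and KO means that the gene was knocked out. The allele, the cells in which it was deleted, the strain of the Dock3 KO mice, and whether the 3 muscles of a genotype came from 3 animals are not given in the sources used here, so p-values measure the spread between these samples. The comparison asks which of these genes differ in level between muscle with and without Dock3.

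Muscle takes up fatty acids through membrane proteins, binds them in the cytosol, joins them to coenzyme A and carries them into mitochondria as carnitine esters. There, each turn of beta-oxidation removes an acetyl unit through a dehydrogenase, a hydratase, another dehydrogenase and a thiolase, and electrons from the first step pass to the respiratory chain through the electron transfer flavoprotein. Many of these genes are known targets of the fatty acid receptors PPAR-alpha and PPAR-delta, which bind DNA beside RXR at a direct repeat of the half-site AGGTCA.

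Values are the authors' normalized counts per gene, and differences are Dock3 KO minus WT on the log2(normalized count + 1) scale with their standard error (SE). Tests used limma across all 16031 genes with Benjamini-Hochberg adjustment, and a gene was called at an adjusted p under 0.05. Groups are said not to overlap where the lowest Dock3 KO sample lay above the highest WT sample, or the reverse.

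Of the 37 genes, 2 rose in Dock3 KO and 0 fell, and 0 were lower at an unadjusted p under 0.05. Plin5, which coats lipid droplets and ties them to mitochondria, was 2.33-fold higher, and Eci1, the mitochondrial isomerase that moves the double bond of unsaturated fatty acids into place for the spiral, was 1.61-fold higher. The 2 genes are 5.41% of the 37, while 0.443% of all tested genes were called higher and 1.03% were called in either direction. The shift was wider than the calls. In 18 of the 37 genes (48.6%) every Dock3 KO sample lay above every WT sample, against 7.6% of all tested genes, and 0 of the 37 showed the opposite order, against 8.65% of all tested genes. An unadjusted p under 0.05 with a higher level in Dock3 KO was found for 13 of the 37 (35.1%), against 4.82% of all tested genes. The difference was above 0 for 32 of the 37 (86.5%), against 49% of all tested genes, and its median was 0.228 over the 37 genes and -0.007 over all tested genes. Most of the differences were small: 5 of the 37 were at least 1.5-fold higher and 0 were at least 1.5-fold lower.

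**Figure D1:**
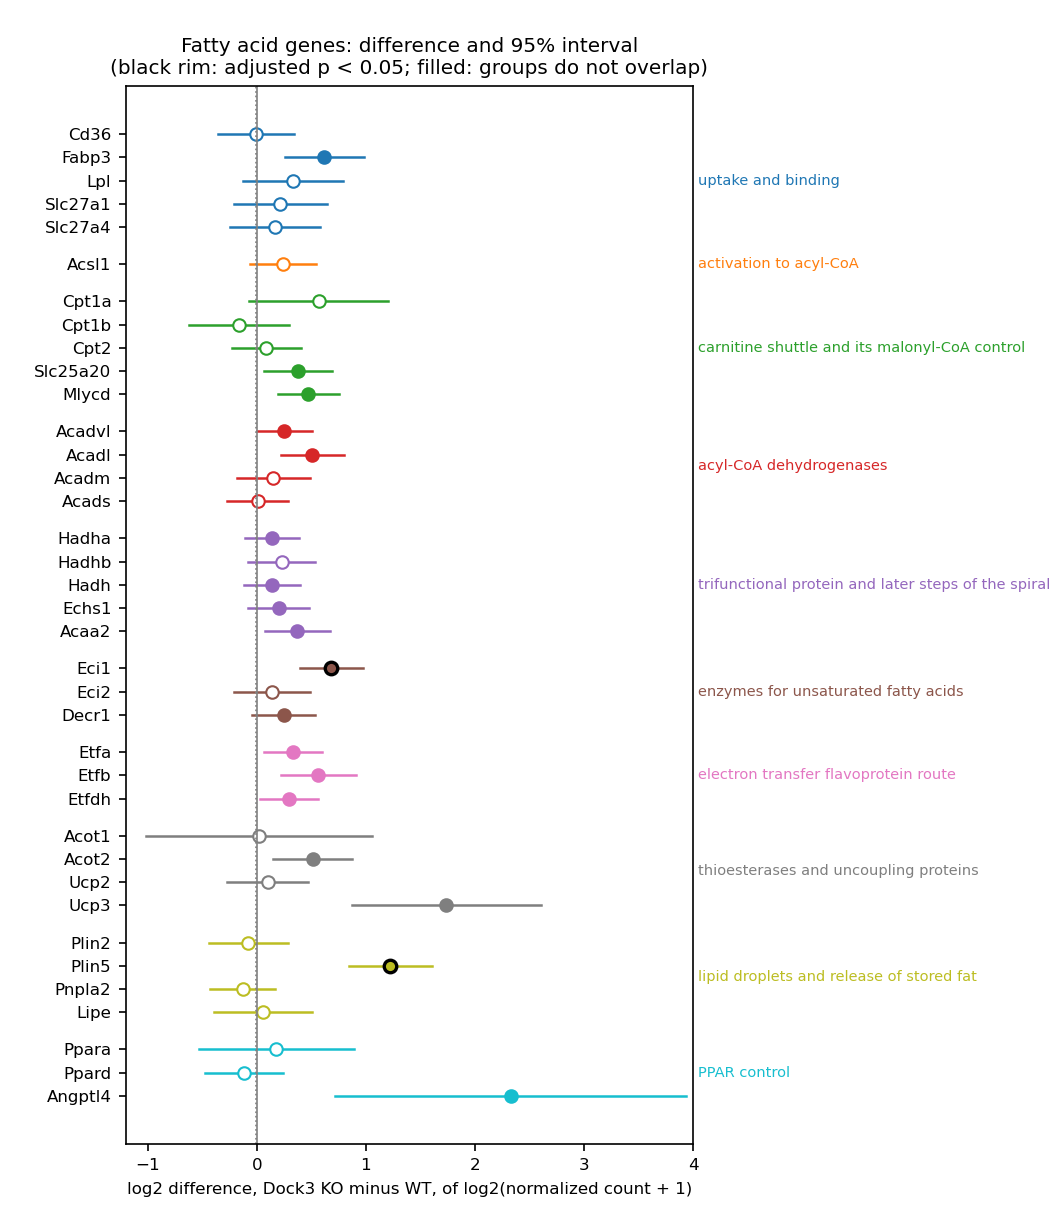
Difference in level of each of the 37 genes between Dock3 KO and WT on the log2(normalized count + 1) scale, grouped by role, with bars for the 95% confidence interval from the limma fit (3 samples a group). Filled points mark groups that do not overlap, black rims the called genes and the dotted line the median of all genes; 32 of the 37 points lie above 0 (15 with every sample scaled to the same total).

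The libraries did not stand alike. Normalized counts summed to between 23520223 and 33393950 per sample, and the steps in low values put the depth at about 21700000 to 32500000 reads. Dock3 itself had 169, 161 and 118 normalized counts in the WT samples and 22.4, 1.78 and 1.54 in the Dock3 KO samples, and it fell by 4.76 on the log2 scale (limma adjusted p = 0.014). Its highest Dock3 KO value belonged to replicate 1. Gm42418 and Lars2 are a pair of genes whose reads often include ribosomal RNA. Together they took 3% to 3.64% of the sum in the WT samples and in Dock3 KO replicate 3. They took 17.9% in Dock3 KO replicate 1 and 20.3% in replicate 2. With log2 Gm42418 as a covariate, 57 of all genes and 0 of the 37 were called. With the same total without Gm42418 and Lars2, 162 of all genes and 1 of the 37 were called. In that setting 12 of the 37 were higher without overlap, against 4.06% of all tested genes. Whether these reads were a cause of the differences was not tested. With Dock3 KO replicate 3 alone against the 3 WT samples, 27 of the 37 genes lay above every WT sample and 2 below, where 26.4% and 27.8% of all tested genes did so. Of the 37 genes, 0 were called in that fit, in which 49 of all genes were called and the lone sample is assumed to vary like the others. The 37 genes made up 0.242%, 0.264% and 0.248% of the sum without those 2 genes in WT, and 0.252%, 0.288% and 0.296% in Dock3 KO replicates 1 to 3, so that Dock3 KO replicate 1 lay between WT samples by this measure. When every sample was scaled to the same total, the median of all genes moved to -0.28, 15 of the 37 differences stayed above 0, and 32 of the 37 stayed above the median of all genes. With that scaling 0 of the 37 were called, 6 were higher and 2 lower without overlap, and 1.77% and 20.8% of all tested genes were higher and lower in this way. Among the 18 genes, the differences of Acadvl, Hadha, Hadh, Echs1 and Decr1 were then below 0 (values from -0.137 to -0.026).

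**Figure D2:**
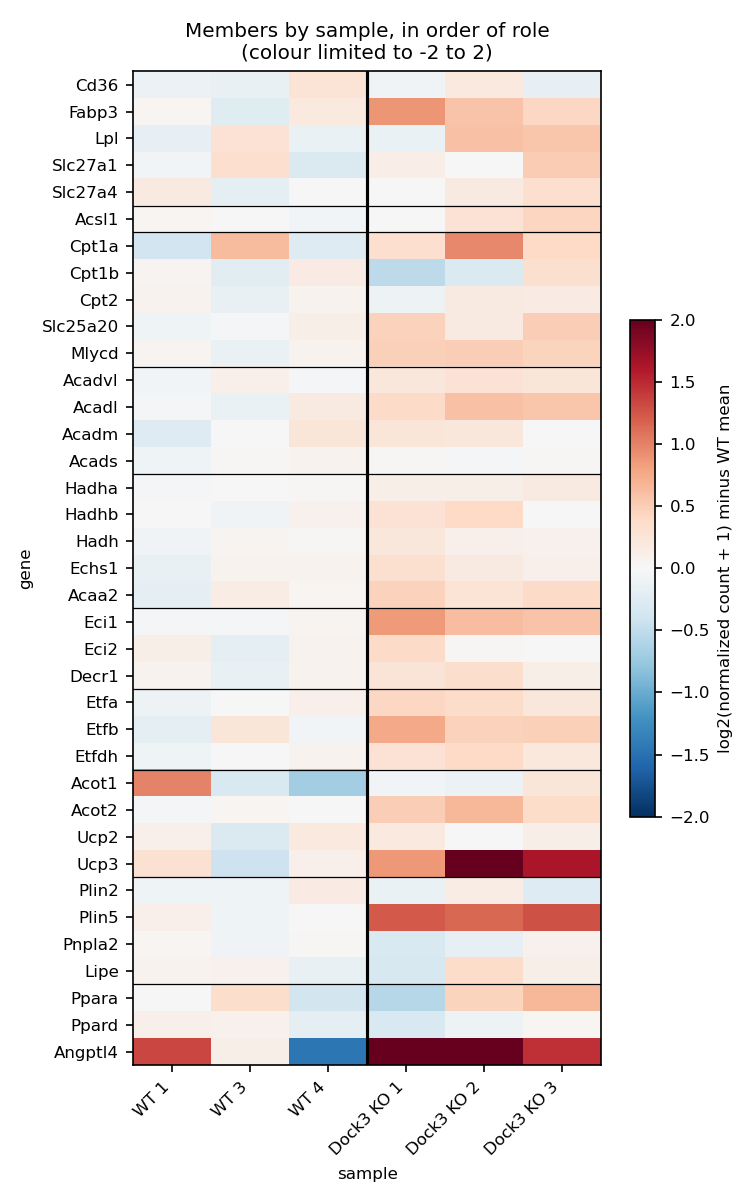
Level of each of the 37 genes in each of the 6 samples as the difference from the WT mean on the log2(normalized count + 1) scale, with genes in rows by role and samples in columns. The 3 Dock3 KO columns lie above the WT mean for most rows; Plin5, Ucp3 and Angptl4 stand out.

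The 300-base promoter windows of Plin5, Eci1 and Ucp3 are printed because the first pair were called and Ucp3 had the largest difference among the 37 genes with levels above 100 normalized counts in every sample. They are RefSeq sequences of build GRCm38.p6, from 250 bases before the start of transcription to 50 after it, at chr17:56117499-56117798 on the minus strand for Plin5, chr17:24426433-24426732 on the plus strand for Eci1 and chr7:100472741-100473040 on the plus strand for Ucp3. Capitals mark matches, on either strand, to the half-site AGGTCA or to the direct repeat AGGTCANAGGTCA with up to 2 mismatches.
Plin5: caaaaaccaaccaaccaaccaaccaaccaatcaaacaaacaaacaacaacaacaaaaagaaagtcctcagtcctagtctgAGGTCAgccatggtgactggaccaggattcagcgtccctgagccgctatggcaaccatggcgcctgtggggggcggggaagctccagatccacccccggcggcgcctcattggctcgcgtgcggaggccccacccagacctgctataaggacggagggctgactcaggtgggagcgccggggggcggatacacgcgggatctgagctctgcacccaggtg
Eci1: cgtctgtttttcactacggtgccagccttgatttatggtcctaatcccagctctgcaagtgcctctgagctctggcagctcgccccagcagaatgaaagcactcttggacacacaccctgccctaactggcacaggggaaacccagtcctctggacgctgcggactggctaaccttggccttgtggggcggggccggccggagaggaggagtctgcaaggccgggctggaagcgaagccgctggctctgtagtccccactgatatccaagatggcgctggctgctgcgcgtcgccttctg
Ucp3: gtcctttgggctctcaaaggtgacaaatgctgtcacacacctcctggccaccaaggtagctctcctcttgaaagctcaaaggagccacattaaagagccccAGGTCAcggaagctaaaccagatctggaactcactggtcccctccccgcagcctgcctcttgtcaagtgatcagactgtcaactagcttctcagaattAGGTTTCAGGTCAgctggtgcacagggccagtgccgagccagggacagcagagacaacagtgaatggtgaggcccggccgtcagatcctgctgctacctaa
The Plin5 window holds 1 half-site, starting 170 bases before the start of transcription. The Ucp3 window holds a half-site 149 bases before the start and a direct repeat, AGGTTTCAGGTCA, that starts 51 bases before it. The Eci1 window holds neither. Of the 37 genes, 32 had a RefSeq window, 37 windows in all. The direct repeat was found in 6 of these windows (Cd36, Echs1, Etfa, Plin2, Slc25a20 and Ucp3) and in 3.86% of all 32851 windows. The half-site, which also lies inside some of the direct repeats, was found in 9 of the 37 windows (of Acadm, Acadvl, Cd36, Cpt1a, Echs1, Plin2, Plin5 and Ucp3) and in 16.3% of all windows. A longer site, TNAAGGTCA, the known binding sequence of estrogen-related receptors, was found in 0 of the 37 windows and in 1.28% of all windows.

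Among the genes of uptake and binding, 1 of 5 had groups that did not overlap. Fabp3, the fatty acid-binding protein of heart and muscle cytosol (chr4:130308595-130315463), had 3207, 2633 and 3547 normalized counts in WT and 5737, 4596 and 4127 in Dock3 KO. The lowest Dock3 KO sample, replicate 3, was 1.16 times the highest WT sample. The difference was 0.62 (SE 0.162, 1.54-fold) and missed the threshold (limma adjusted p = 0.152). Fabp3 shares 99.3% of its bases over 402 aligned bases with the pseudogene Fabp3-ps1, which had 0 to 3.65 normalized counts, and it overlaps Zcchc17 on the opposite strand. Cd36, the fatty acid translocase at the cell surface, ranged from 5457 to 7306 in WT and from 5398 to 6963 in Dock3 KO, and its difference of -0.009 had a 95% interval of -0.358 to 0.34. Lpl, the lipase that frees fatty acids from circulating lipoproteins, had 4393, 5988 and 4494 in WT and 4468, 7341 and 7177 in Dock3 KO. Dock3 KO replicate 1 lay among the WT samples, while the other two lay above them. The transport proteins Slc27a1 and Slc27a4 had differences of 0.215 and 0.164 with overlapping groups. Per kilobase of exon, Fabp3 had the highest WT level of the 37 genes, at 3802 normalized counts per kb, followed by Cd36 at 1701.

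Activation is represented by Acsl1, the main long-chain acyl-CoA synthetase of muscle. It had 3068, 3020 and 2880 normalized counts in WT and 2996, 3664 and 4024 in Dock3 KO. Replicate 1 of Dock3 KO lay within the WT range and the other two above it, with a difference of 0.243 (SE 0.136).

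Among the 5 genes of the carnitine shuttle and its control, 2 had groups that did not overlap, the carrier and malonyl-CoA decarboxylase. The transferases overlapped. Mlycd, malonyl-CoA decarboxylase, which destroys the malonyl-CoA that blocks entry into mitochondria (chr8:119394878-119411102), had 796, 701 and 804 in WT and 1068, 1072 and 1043 in Dock3 KO. Its Dock3 KO samples were close together (1061 ± 15.9, SD, n = 3), and the lowest was 1.3 times the highest WT sample. The difference was 0.471 (SE 0.125, limma adjusted p = 0.162). Slc25a20, the carrier that exchanges acylcarnitine for carnitine across the inner membrane (chr9:108662088-108684641), had 781, 813 and 904 in WT and 1144, 938 and 1171 in Dock3 KO. Here replicate 2 of Dock3 KO lay just above the highest WT sample, and the difference was 0.376 (SE 0.14, limma adjusted p = 0.351). Slc25a20 lies 1.43 Mb from Dock3 on the same chromosome; whether DNA near the targeted gene had a part in its level was not tested.

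Cpt1b, the muscle form of the transferase at the outer membrane that commits fatty acids to oxidation, had 4031, 3355 and 4383 in WT and 2718, 3205 and 4856 in Dock3 KO. Dock3 KO replicates 1 and 2 were below every WT sample and replicate 3 above every one. Its difference of -0.162 was 1 of 5 below 0 among the 37 genes. Cpt1a, the liver form, had 151, 306 and 165 in WT and 249, 386 and 260 in Dock3 KO, with WT replicate 3 above 2 of the Dock3 KO samples and a difference of 0.567 (SE 0.285). Cpt1b remained far above Cpt1a per kilobase in both groups, at 1163 against 27.2 normalized counts per kb in WT and 1066 against 39.1 in Dock3 KO. Cpt2, the inner-membrane transferase, differed by 0.086 with overlapping groups.

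The 4 acyl-CoA dehydrogenases make the first double bond and differ in the chain length they prefer. The pair for longer chains did not overlap between groups, and the pair for shorter chains did. Acadl, for long chains (chr1:66830839-66863277), had 1936, 1824 and 2260 in WT and 2607, 3014 and 2923 in Dock3 KO. Every Dock3 KO sample was at least 1.15 times the highest WT sample, and the difference was 0.508 (SE 0.13, 1.42-fold, limma adjusted p = 0.147). Acadvl, for very long chains (chr11:70010183-70015411), had 2984, 3331 and 3041 in WT and 3648, 3803 and 3666 in Dock3 KO. The difference was 0.25 (SE 0.114, limma adjusted p = 0.484). Acadm, for medium chains, had 2605, 3118 and 3668 in WT and 3680, 3615 and 3073 in Dock3 KO, with a difference of 0.152 (95% interval -0.185 to 0.489). Acads, for short chains, differed by 0.006 (95% interval -0.271 to 0.282), with all 6 samples between 741 and 824. With every sample scaled to the same total the differences were 0.233 for Acadl, -0.026 for Acadvl, -0.124 for Acadm and -0.27 for Acads. Acadvl, Acadm and Acads thus changed sign, and Acadl did not. Whether the longer-chain and shorter-chain enzymes differed from each other in response was not tested. Per kilobase, the WT levels were 1161 for Acadvl, 1001 for Acadl, 800 for Acadm and 348 for Acads.

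**Figure D3:**
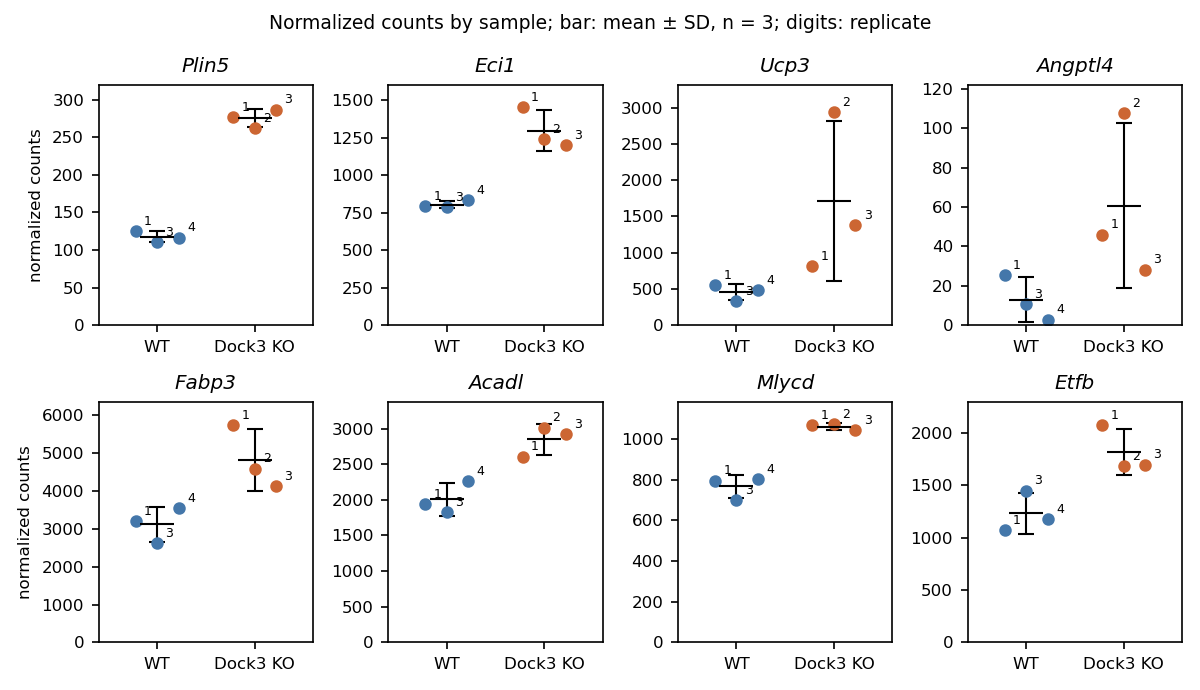
Normalized counts in each of the 6 samples for single genes of the set, with points numbered by replicate and bars for the mean and SD of 3 samples a group. Plin5 and Eci1 rise with little spread within a group, while Ucp3 is highest in Dock3 KO replicate 2 at 2942 and lowest among Dock3 KO samples in replicate 1 at 809.

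Of the 5 genes of the later steps of the spiral 4 had groups that did not overlap, among them the 3 with the smallest differences of all 18. Hadha, the alpha subunit of the mitochondrial trifunctional protein (chr5:30118304-30155162), had 3381, 3431 and 3470 in WT and 3720, 3700 and 3901 in Dock3 KO. The groups were apart by only 1.07-fold at their nearest samples, and the difference was 0.139 (SE 0.11, limma adjusted p = 0.744). Its partner Hadhb, whose gene starts beside it on the opposite strand, had 5116, 4924 and 5479 in WT and 6323, 6808 and 5150 in Dock3 KO. Replicate 3 of Dock3 KO lay within the WT range, so the groups overlapped, and the difference was 0.228.

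Acaa2, the thiolase that releases acetyl-CoA (chr18:74779197-74806208), had 1147, 1448 and 1333 in WT and 1788, 1584 and 1697 in Dock3 KO. All 3 Dock3 KO samples were higher than all 3 WT samples, with a difference of 0.372 (SE 0.132, limma adjusted p = 0.326). Echs1, the short-chain hydratase (chr7:140105710-140116476), had 1418, 1652 and 1653 in WT and 1953, 1788 and 1678 in Dock3 KO. Hadh, the hydroxyacyl-CoA dehydrogenase (chr3:131233419-131272101), had 1971, 2152 and 2123 in WT and 2440, 2242 and 2197 in Dock3 KO. For both, the lowest Dock3 KO sample was 1.02 times the highest WT sample, and the differences were 0.199 (SE 0.127) for Echs1 and 0.139 (SE 0.116) for Hadh.

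Unsaturated fatty acids need additional enzymes, and Eci1 rose. It lies at chr17:24426641-24439348 on the plus strand and had 795, 786 and 835 normalized counts in WT (806 ± 25.7, SD, n = 3) and 1454, 1240 and 1200 in Dock3 KO (1298 ± 137). The Dock3 KO samples were all well above the WT samples, the lowest at 1.44 times the highest WT value. The difference was 0.683 (SE 0.129, 95% interval 0.394 to 0.971, limma adjusted p = 0.0396). The call ended when any 1 of the 6 samples was left out (adjusted p between 0.0808 and 0.178), with differences between 0.598 and 0.737. It also ended with the same total (0.407, adjusted p = 0.299), with the same total without Gm42418 and Lars2 (0.58, 0.0934), without the variance trend (0.683, 0.189), with Gm42418 as a covariate (0.567, 0.553) and with Dock3 KO replicate 3 as the only Dock3 KO sample (0.574, 0.433).

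Eci2, a related isomerase shared with peroxisomes, had 793, 646 and 772 in WT and 959, 749 and 730 in Dock3 KO. Only Dock3 KO replicate 1 lay above the WT range, and the difference was 0.135. Decr1, the reductase that acts on conjugated double bonds (chr4:15917240-15945507), had 1324, 1134 and 1321 in WT and 1509, 1606 and 1362 in Dock3 KO. Its groups did not overlap, and the difference was 0.245 (SE 0.13, limma adjusted p = 0.573).

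All 3 genes of the electron transfer flavoprotein route had groups that did not overlap. Etfb, its beta subunit (chr7:43444083-43457800), had 1071, 1448 and 1178 in WT and 2075, 1680 and 1697 in Dock3 KO. Even the highest WT sample, replicate 3, was below the lowest Dock3 KO sample, and the difference was 0.565 (SE 0.152, 1.48-fold, limma adjusted p = 0.171). Etfa, the alpha subunit (chr9:55454508-55512243), had 1807, 1916 and 2076 in WT and 2561, 2479 and 2264 in Dock3 KO. Etfdh, the oxidoreductase that hands the electrons to ubiquinone (chr3:79603788-79629500), had 1554, 1662 and 1728 in WT and 2021, 2161 and 1902 in Dock3 KO. The differences were 0.333 (SE 0.12) for Etfa and 0.298 (SE 0.119) for Etfdh, each with an unadjusted p under 0.05 that did not survive the adjustment. Etfa lies on the chromosome of Dock3, 51.4 Mb away. Per kilobase, the 2 subunits had like WT levels, 1053 for Etfa and 1059 for Etfb.

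Of the thioesterases and uncoupling proteins, 1 of each pair had groups that did not overlap. Ucp3, the uncoupling protein of skeletal muscle mitochondria (chr7:100472990-100486432), had 552, 333 and 478 normalized counts in WT and 809, 2942 and 1378 in Dock3 KO. Its Dock3 KO samples were all higher than WT but spread widely, with replicate 2 far above replicate 1. The difference was 1.738 (SE 0.389, 95% interval 0.869 to 2.606, 3.34-fold) and missed the threshold (limma adjusted p = 0.0892). Without Dock3 KO replicate 1 the difference was 2.176 and passed it (adjusted p = 0.0166), and without Dock3 KO replicate 2 it was 1.245 (adjusted p = 0.159). Ucp2, the neighbouring and more widely expressed uncoupling protein, ranged from 377 to 531 in WT and from 458 to 527 in Dock3 KO, a difference of 0.098. Per kilobase, Ucp3 went from 145 in WT to 545 in Dock3 KO, and Ucp2 from 66.8 to 70.9. The WT gap between the 2 genes comes from their merged exon lengths (3135 bases for Ucp3 and 6989 for Ucp2). Their mean WT counts were alike, at 455 for Ucp3 and 467 for Ucp2.

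Acot2, the mitochondrial thioesterase that frees fatty acids from coenzyme A (chr12:83987861-83993873), had 204, 213 and 206 in WT and 293, 331 and 268 in Dock3 KO. The WT samples were close together and the lowest Dock3 KO sample was 1.26 times the highest of them, with a difference of 0.512 (SE 0.162, limma adjusted p = 0.254). Acot1, its cytosolic relative next to it on the chromosome, had 59.3, 23.6 and 17.7 in WT and 28, 27 and 34.7 in Dock3 KO. Because Acot1 and Acot2 share 95.1% of their bases over 1274 aligned bases, the split of reads between them is uncertain.

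Plin5 rose. It lies at chr17:56111601-56117596 on the minus strand and had 125, 111 and 116 normalized counts in WT (117 ± 7.41, SD, n = 3) and 277, 262 and 287 in Dock3 KO (275 ± 12.2). The samples of each group were close together, and the lowest Dock3 KO sample was 2.09 times the highest WT sample. The difference was 1.223 (SE 0.171, 95% interval 0.842 to 1.603, limma adjusted p = 0.00662). The call held when any 1 of the 6 samples was left out (adjusted p between 0.0205 and 0.0467). It ended when every sample was scaled to the same total (difference 0.949, adjusted p = 0.09), with Gm42418 as a covariate (1.28, adjusted p = 0.164), and with Dock3 KO replicate 3 as the only Dock3 KO sample (1.281, adjusted p = 0.241).

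The other genes of lipid droplets and fat release overlapped between groups. Plin2, the droplet coat protein found in most tissues, had 438, 437 and 522 in WT and 424, 515 and 389 in Dock3 KO. Per kilobase, Plin2 stood above Plin5 in WT, at 133 against 56.3, while in Dock3 KO the levels were 126 and 132. Pnpla2, the lipase that starts the breakdown of stored triglyceride, had 2969, 2737 and 2937 in WT and 2320, 2572 and 3055 in Dock3 KO. As with Cpt1b, replicates 1 and 2 of Dock3 KO were below every WT sample and replicate 3 above. Lipe, hormone-sensitive lipase, differed by 0.057 with overlapping groups.

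Levels of the PPAR receptors overlapped between groups. Ppara had 189, 238 and 145 in WT and 125, 255 and 296 in Dock3 KO, with Dock3 KO replicate 1 lowest of all 6 samples. Ppard had 461, 459 and 379 in WT and 349, 402 and 444 in Dock3 KO, a difference of -0.121 (95% interval -0.478 to 0.237). Angptl4, a secreted inhibitor of lipoprotein lipase and a known PPAR target (chr17:33773750-33781830), had 25.6, 10.5 and 2.87 in WT and 46.1, 108 and 28.3 in Dock3 KO. Its groups were apart by 1.1-fold at their nearest samples, and the difference of 2.327 had an SE of 0.72 (limma adjusted p = 0.246). Angptl4 had the lowest WT level per kilobase of the 37 genes, at 3.67, so that its values rest on few reads.

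Ratios between related genes within a sample do not depend on how samples were scaled. In 3 of 6 pairs the ratio did not overlap between groups, and in each of these the ratio was higher in Dock3 KO. Of the first genes of these pairs, Plin5 and Eci1 were called and Ucp3 differed by 1.738. Their partners Plin2, Eci2 and Ucp2 differed by -0.079, 0.135 and 0.098. The genes were chosen with earlier results of these data known, so these ratios and their p-values are no separate test. How often pairs of other genes differ in this way was not tested. The log2 ratio of Plin5 to Plin2 was -1.81, -1.98 and -2.16 in WT and -0.61, -0.97 and -0.44 in Dock3 KO, a difference of 1.309. For Eci1 to Eci2 the ratio was 0.004, 0.284 and 0.113 in WT and 0.601, 0.727 and 0.717 in Dock3 KO, a difference of 0.548. For Ucp3 to Ucp2 it was 0.162, -0.18 and -0.15 in WT and 0.618, 2.683 and 1.459 in Dock3 KO, a difference of 1.642. Each of the 3 had a two-sided exact permutation p of 0.1, the smallest that 3 against 3 samples can give, and 0.2 after Benjamini-Hochberg adjustment over the 6 pairs. The ratios of Acot2 to Acot1, Cpt1a to Cpt1b and Ppara to Ppard overlapped, with differences of 0.485, 0.732 and 0.3 and exact permutation p of 0.6, 0.2 and 0.4.

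**Figure D4:**
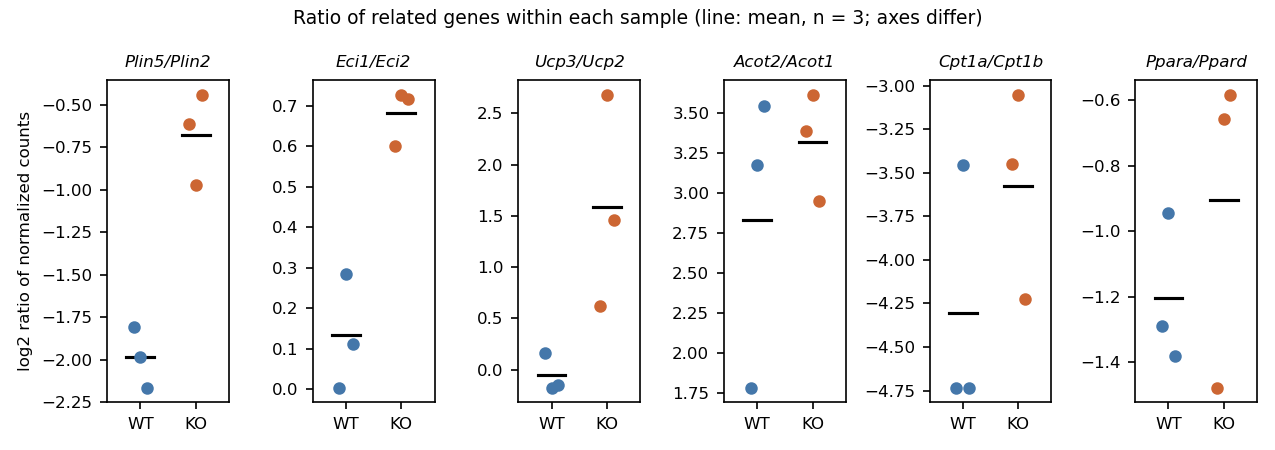
Log2 ratio of the first to the second gene of 6 related pairs in each of the 6 samples, with WT and Dock3 KO side by side. The ratios of Plin5 to Plin2, Eci1 to Eci2 and Ucp3 to Ucp2 are higher in all 3 Dock3 KO samples than in all 3 WT samples.

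The Dock3 KO samples did not share 1 order over the 18 genes whose groups did not overlap. Replicate 1 was highest of the 3 for 7 genes (Fabp3, Hadh, Echs1, Acaa2, Eci1, Etfa and Etfb), most of them enzymes of the spiral and the electron route. Replicate 2 was highest for 8 genes (Mlycd, Acadvl, Acadl, Decr1, Etfdh, Acot2, Ucp3 and Angptl4), and replicate 3 for 3 genes (Slc25a20, Hadha and Plin5). Replicate 3, the Dock3 KO library with a WT-like share of Gm42418 and Lars2, was the lowest of the 3 for 10 of the 18.

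Genes of the same pathway outside the set gave few calls. Of 62 other genes of fatty acid metabolism 58 were tested and 0 were called by limma; 2 were higher and 3 lower at an unadjusted p under 0.05, and the median difference was 0.022. The groups did not overlap for 3 of the 58 that were higher and 4 that were lower in Dock3 KO. Of all tested genes, 7.6% were higher and 8.65% lower in this way. Ech1, which isomerises double bonds of unsaturated fatty acids in mitochondria and peroxisomes, had 1570, 1836 and 1914 in WT and 3343, 2853 and 2509 in Dock3 KO, a difference of 0.705 just short of the threshold (limma adjusted p = 0.0589). Acsl6, another acyl-CoA synthetase, differed by -0.538 and Abcd2, a peroxisomal fatty acid transporter, by -0.498, and neither was called (adjusted p = 0.171 and 0.197).

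Of 23 PPAR partners, coactivators and repressors 0 were called by limma, and 1 was higher and 1 lower at an unadjusted p under 0.05. The lower 1 was Prkag3, a subunit of AMP-activated protein kinase, with a difference of -0.502 (adjusted p = 0.234). Esrra, an estrogen-related receptor, differed by 0.348 and had an unadjusted limma p of 0.1 (adjusted p = 0.597). Of 10 genes listed as PPAR targets in fuel switching, 9 were tested. The gene below the filter on low values, Fgf21, had 8.85, 10.7 and 3.33 in WT and 0 in every Dock3 KO sample. Among the 9 tested genes, Pdk4 rose. Pdk4, the kinase that shuts pyruvate dehydrogenase and so spares glucose, had 1581, 908 and 1000 in WT and 3125, 11092 and 4307 in Dock3 KO, a difference of 2.233 (limma adjusted p = 0.0301). As for Ucp3, replicate 2 was highest and replicate 1 lowest among the Dock3 KO samples. Of the other 8, 0 were called; 1 was lower and 0 higher at an unadjusted p under 0.05, and the median difference of the 9 was 0.059. That gene, named after its value was seen, was Cyp4b1, a fatty acid hydroxylase, which had 123, 58.1 and 76.6 in WT and 29.4, 51.6 and 43.9 in Dock3 KO, lower without overlap (-0.997, limma adjusted p = 0.32). Of 16 genes of general oxidative capacity (the citric acid cycle, the respiratory chain and other mitochondrial genes) 0 were called by limma. An unadjusted p under 0.05 was found for 0 of them. Without overlap 5 of the 16 were higher and 0 lower, against 7.6% and 8.65% of all tested genes. The difference was above 0 for 12 of the 16, against 49% of all tested genes. The median difference of the 16 was 0.086. The smallest p-values belonged to Uqcrc1, Idh3a and Vdac1, with differences of 0.238, 0.206 and 0.2.

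**Figure D5:**
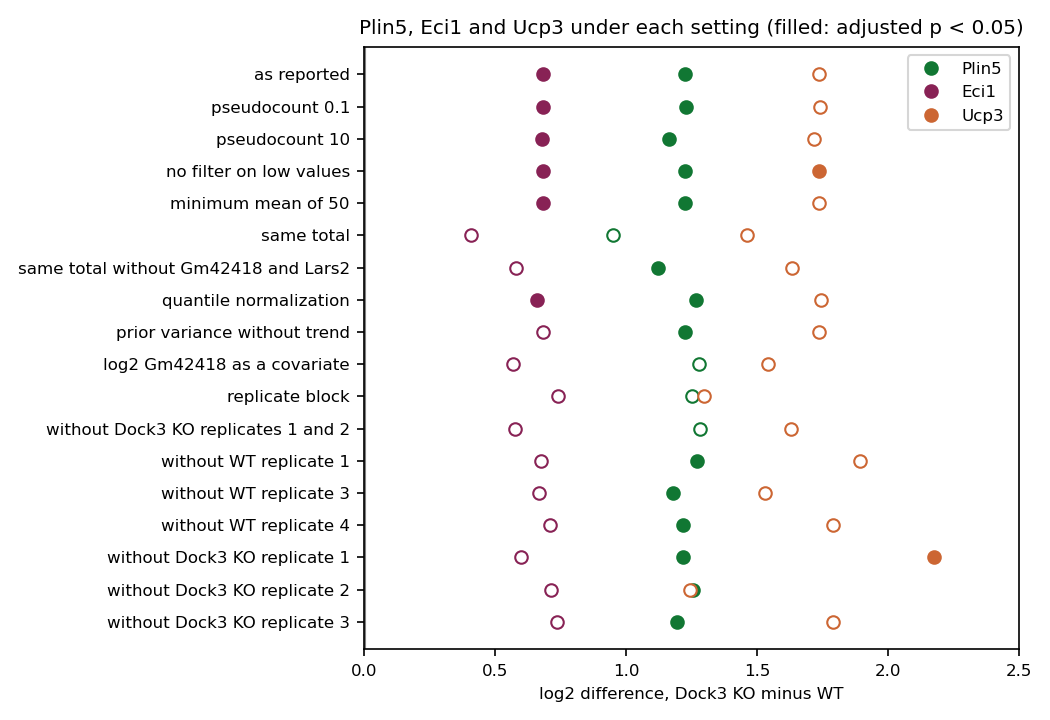
Log2 difference, Dock3 KO minus WT, of Plin5, Eci1 and Ucp3 under the reported setting and each alternative, with filled points where the adjusted p was under 0.05. All differences lie above 0, and Plin5 is called under more of the settings than Eci1 and Ucp3.

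Markers of the tissue and of other cell types give the background to these levels; in bulk muscle, fewer cells of a type and less RNA per cell cannot be told apart. Of 12 skeletal muscle markers 0 were called by limma and 1 had an unadjusted p under 0.05: Mb, myoglobin, was higher in all 3 Dock3 KO samples than in WT (19805, 30724 and 29570 against 40497, 32190 and 35386). Markers of slow fibres, which burn more fat, summed to between 1827 and 2102 in WT and between 1572 and 2711 in Dock3 KO. Of these 8 markers 0 were called and 0 had an unadjusted p under 0.05. Among the skeletal muscle markers, the fast-fibre myosins Myh4, Myh1 and Myh2 differed by 0.188, 0.472 and 0.549. Their groups overlapped, and each had an unadjusted limma p above 0.05. Adipocyte markers, which share fat genes with the set, summed to between 2159 and 3570 in WT and between 2575 and 3479 in Dock3 KO. Most of that sum was Fabp4 (1718 to 3379 in WT and 2162 to 2633 in Dock3 KO), which differed by -0.036. Of the 7 markers tested 0 were called, all 7 overlapped, and 2 had an unadjusted p under 0.05 with a higher level in Dock3 KO. The difference was above 0 for 5 of the 7, against 49% of all tested genes, with a median of 0.412. Ucp1, the defining gene of brown fat, was at 0 in every sample, and Dio2 was the 1 tested gene of the 4 brown fat markers (higher without overlap, not called). Of the 8 endothelial, 7 macrophage, 5 erythrocyte, 5 Schwann cell and 6 smooth muscle and pericyte markers 0 were called by limma. An unadjusted p under 0.05 was found for 1, a Schwann cell marker that was lower. The difference was above 0 for 0 of the 7 macrophage markers (median -0.256) and 5 of the 5 erythrocyte markers (median 0.632). It was above 0 for 2 of the 8 endothelial, 3 of the 5 Schwann cell and 2 of the 6 smooth muscle and pericyte markers. Endothelial markers summed to between 4518 and 6265 in WT and between 4390 and 5923 in Dock3 KO. Macrophage markers summed to between 3661 and 3951 in WT and between 2907 and 3683 in Dock3 KO. Erythrocyte markers summed to between 28542 and 54916 in WT and reached 97653 in Dock3 KO replicate 1, against 36950 and 46254 in the other two. Schwann cell sums lay between 1542 and 2090 in WT and between 1682 and 2001 in Dock3 KO, and smooth muscle sums between 9925 and 14266 and between 13536 and 13994. Of the 6 fibroblast markers 1 rose, Col1a1, a collagen gene, and the markers summed to between 30448 and 31518 in WT and between 35146 and 40780 in Dock3 KO. Col1a2, another collagen gene, was also higher in every Dock3 KO sample (0.882, limma adjusted p = 0.0537). Dcn and Lum, matrix proteoglycans, differed by -0.276 and -0.477 with overlapping groups. Dpt differed by 0.262 with overlapping groups, and Pdgfra by 0.153, higher without overlap and not called. The 4 markers that are not collagens summed to between 20869 and 25474 in WT and between 16384 and 23796 in Dock3 KO. Most of that sum was Dcn, with 17133 to 20834 in WT and 12503 to 19142 in Dock3 KO. The part of these cells in the levels of the 37 genes was not tested.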

How the data were processed

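Total RNA was cleared of ribosomal RNA and sequenced in pairs of reads from strand-specific libraries, per the labels' protocols. The submitters' processing notes name FastQC, Trim Galore 0.4.5, Salmon 0.12.0, DESeq2 1.22.1 and R 3.5.3 with builds mm10 and GRCm38. The deposited values are a signal in normalized counts per gene, which are neither whole nor of 1 fixed sum, so no count test was run. How they were normalized and whether strand was used in counting is not given in the sources used here.

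Genes with a mean of at least 10 were fitted on log2(value + 1) with limma 3.58.1 (R 4.3.3, variance trend, no covariates) and p-values were adjusted over all 16031. On simulated data with 200 changed genes, 32 of 100 changed by 1 on the log2 scale and 73 of 100 changed by 2 were called. Levels per kb divide by the merged exon length. Copies of the genes were searched with blastn 2.17.0 and counted at 95% identity over at least 100 bases. Ratios used exact permutation tests with scipy 1.17.1.

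The 37 genes and all lists were chosen with earlier results of these data known. Genes called, then genes without overlap in order of unadjusted p, are given in full, and from each other pathway list those called or else the 3 with the smallest p; 1 gene that this rule names is not reported here. Alternatives varied the pseudocount, filter, scaling, variance trend, a Gm42418 covariate, a replicate block and the samples left out.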

Additional observations from a re-analysis of the deposited data

How the results depend on the processing

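With 3 samples a group, most simulated 2-fold changes went uncalled, and small differences moved with the scaling. Counts over all genes moved by over 1.5 times to 104 without the variance trend, 57 with Gm42418 as a covariate and 49 without Dock3 KO replicates 1 and 2, and ranged from 98 to 159 with 1 sample left out. Of the 37 genes, the number called was 0 with the same total, with the covariate, with the replicate block and without Dock3 KO replicates 1 and 2, it was 1 with the same total without Gm42418 and Lars2 and without the trend, and 1 to 2 with 1 sample left out. Genes higher without overlap numbered 6 with the same total, and 2 were lower there and without Dock3 KO replicates 1 and 2, and 0 to 2 with 1 sample left out. The cause was not tested. The remaining settings left these counts within 1.5 times.

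Differences of uncalled genes near 0 changed sign. With the same total they were -0.06 for Slc27a1, -0.11 for Slc27a4, -0.033 for Acsl1, -0.19 for Cpt2, -0.026 for Acadvl, -0.12 for Acadm, -0.27 for Acads, -0.14 for Hadha, Hadh and Eci2, -0.048 for Hadhb, -0.077 for Echs1, -0.03 for Decr1, -0.24 for Acot1, -0.18 for Ucp2, -0.22 for Lipe and -0.096 for Ppara. With the same total without Gm42418 and Lars2 they were -0.017 for Cpt2, -0.097 for Acads, -0.077 for Acot1, -0.005 for Ucp2 and -0.046 for Lipe. With the covariate they were 0.356 for Cpt1b, -0.014 for Acadm, -0.036 for Hadhb, -0.032 for Eci2, 0.102 for Pnpla2 and 0.054 for Ppard. Without Dock3 KO replicates 1 and 2 they were 0.317 for Cpt1b, -0.013 for Acadm, -0.005 for Hadhb, -0.008 for Eci2, 0.086 for Pnpla2 and 0.042 for Ppard. A pseudocount of 10 gave -0.012 for Acot1.

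Samples with the same number did not pair: how far they stood from their group's mean correlated, across genes, at 0.065 for replicate 1 and 0.0066 for replicate 3. With the replicate block 127 of all genes were called, Plin5 differed by 1.252 (adjusted p = 0.0895) and Eci1 by 0.739 (adjusted p = 0.214), and the sign turned for Cd36 (0.021), Acot1 (-0.26), Lipe (-0.17) and Ppara (-0.14).

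With 1 sample left out, sign changes were met within these ranges: -0.12 to 0.13 for Cd36, -0.40 to 0.017 for Cpt1b, -0.039 to 0.038 for Acads, -0.33 to 0.52 for Acot1, -0.049 to 0.20 for Ucp2, -0.19 to 0.009 for Plin2, -0.098 to 0.24 for Lipe and -0.064 to 0.56 for Ppara.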

Other observations

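WT replicate 3 held more smooth muscle transcripts than the other samples. Acta2, smooth muscle actin, had 2371 normalized counts there and between 487 and 686 in the other 5 samples. Myh11, smooth muscle myosin, had 1266 against 349 to 547, and Tagln, transgelin, had 1158 against 215 to 316. Rgs5, a pericyte gene, had 7517 in the same sample, against 7774 to 11800 elsewhere. Among the 37 genes, WT replicate 3 also held the highest WT value of Cpt1a and the lowest of Ucp3. These genes were chosen after their values were seen, and none of the differences between genotypes was called for them.

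WT replicate 1 stood above the other WT samples for a pair of thioesterases. Acot1 had 59.3 there against 17.7 to 34.7 in the other 5 samples, and Acot11 had 444 against 112 to 163.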
